A study of Xenopus tropicalis with 11 samples.

Results

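Cenp-a chromatin of *Xenopus tropicalis* was compared with bulk nucleosomes pulled down from the same chromatin by antibodies against histone H3 or histone H4. The comparison rests on 6 of the 11 libraries of the study, namely Cenp-a replicates 1, 2 and 3 against H4 of replicate 1 and H3 of replicates 2 and 3, each Cenp-a library set against the histone library of its own number. All 6 come from wild type XTN-6 cells of the NXR Nigerian strain, a single cell line made from dissociated embryos, whose nuclei were digested to mononucleosomes with micrococcal nuclease and immunoprecipitated without crosslinking. The Cenp-a antibody was raised in rabbit against the *X. laevis* protein and cross-reacts with *X. tropicalis*. H4 was sequenced in replicate 1 and H3 in replicates 2 and 3, so the histone antibody and the replicate cannot be told apart. The reporting summary of the paper calls the replicates technical, whereas the text deposited with the series calls them biological. The p-values measure only the spread between these preparations. Whole tadpole stands in the labels next to the cell line, and counts of DNA carry no expression markers with which either could be checked.

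Cenp-a is the histone H3 variant that takes the place of H3 in nucleosomes of the centromere and on which the kinetochore is built. H4 is part of both kinds of nucleosome, whereas H3 marks the bulk of chromatin. A pull-down of H3 or H4 passes through the same immunoprecipitation steps as that of Cenp-a, whereas input chromatin was set aside before them.

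Reads had been counted in 145051 bins of 10 kb, of which 144914 lie on the 10 chromosomes and 137 on 47 unplaced scaffolds. Total counts were 53491615, 13576415 and 229872947 for Cenp-a replicates 1, 2 and 3, against 52219796 for H4 replicate 1, 64456099 for H3 replicate 2 and 45198397 for H3 replicate 3. The shallowest library, Cenp-a replicate 2, still had a median of 82 counts per bin, and the deepest, Cenp-a replicate 3, had 1371. Levels are normalized counts, in CPM per bin, counts scaled to the same total on the chromosomes in every library, and a ratio is a Cenp-a level divided by the H3 or H4 level of the same replicate. A bin was called when its adjusted p-value in edgeR's quasi-likelihood test was under 0.05 and its fold change at least 5-fold.

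Cenp-a exceeded H3/H4 by these limits in 62 of the 144689 bins that were tested (0.0429%), and H3/H4 exceeded Cenp-a in 0 (0%). At a limit of 2-fold, 90 bins (0.0622%) were higher and 0 (0%) lower. All 62 lay in a single compact cluster on each of the 10 chromosomes, which together span 69 bins or 690 kb, 0.0476% of the bins on chromosomes. No scaffold bin was called among the 100 tested. The log2 fold changes of the called bins ran from 2.33 to 4.19 with a median of 2.70, with standard errors from 0.09 to 0.28 and a largest adjusted p of 6.49e-19 in edgeR. The 3 called bins nearest the 5-fold limit (log2 of 2.32) had log2 fold changes of 2.33, 2.34 and 2.34, and the closest bins outside it had 2.29, 2.31 and 2.32. For 0 bins called lower at 5-fold, 4814 of the 144689 bins had an unadjusted p under 0.05 on the lower side in edgeR. On the higher side 2962 did. In DESeq2, which also called 0 lower, 975 were on the lower and 1177 on the higher side. The side with more bins thus changed with the method.

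The clusters lay at chr1:89227366-89237365, chr2:67465402-67555401, chr3:16700983-16770982, chr4:46563929-46593928, chr5:61984911-62044910, chr6:73065893-73105892, chr7:60264911-60394910, chr8:21351474-21491473, chr9:42103438-42153437 and chr10:21191474-21261473 of the v10 genome. They were 10 to 140 kb long, the shortest being the single called bin of chromosome 1 and the longest the 14 bins of chromosome 8. Of the 10 clusters, 8 overlapped no annotated gene. The cluster of chromosome 4 overlapped LOC116406480, a long noncoding RNA gene at chr4:46563021-46564076. The end of the chromosome 5 cluster held LOC108647623, a protein-coding gene at chr5:62043394-62044416.

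Within the clusters Cenp-a took 1.67%, 1.05% and 1.39% of the counts on chromosomes in replicates 1, 2 and 3, against 0.234% for H4 replicate 1, 0.151% for H3 replicate 2 and 0.184% for H3 replicate 3. Wilson 95% intervals, which cover counting error only, were at most 0.0108 percentage points wide. The groups did not overlap, and the means were 1.37% ± 0.31 for Cenp-a and 0.189% ± 0.042 for H3/H4 (SD, n = 3 each; exact two-sided permutation p = 0.10, the smallest that 3 against 3 allows). Divided within replicates, Cenp-a exceeded H3/H4 by 7.14, 6.96 and 7.59 times, a mean of 7.23 ± 0.33 (SD, n = 3; exact two-sided sign-flip p = 0.25, the smallest for 3 pairs). These clusters were chosen with the same libraries. Clusters called from the other replicates and measured in the replicate left out gave ratios of 7.19, 6.08 and 7.59 in replicates 1, 2 and 3. They spanned 68, 80 and 69 bins, and the 80 bins used for replicate 2 include all 69 of the main clusters.

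The excess over input varied far more between replicates than the excess over H3/H4. Cenp-a exceeded input in the same bins by 14.6, 7.72 and 10.5 times in replicates 1, 2 and 3, a mean of 10.9 ± 3.44 (SD, n = 3). The coefficient of variation was 4.50% against H3/H4 and 31.5% against input. The bins were chosen by the test against H3/H4 in these same libraries, so the spreads are not on equal terms. In clusters called from the other replicates, the ratios over H3/H4 in the replicate left out spread more, at 7.19, 6.08 and 7.59. Those clusters spanned 68, 80 and 69 bins, so the lowest ratio belongs to the longest span. The part of the span in this spread was not tested. H3/H4 moved with the Cenp-a libraries, at 2.04 times input for H4 replicate 1, 1.11 for H3 replicate 2 and 1.38 for H3 replicate 3, whereas IgG, an unspecific rabbit antibody, stood at 1.05 and 1.08 times input in replicates 2 and 3. The comparisons share libraries, so these values are given side by side and their likeness was not tested.

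**Figure D1:**
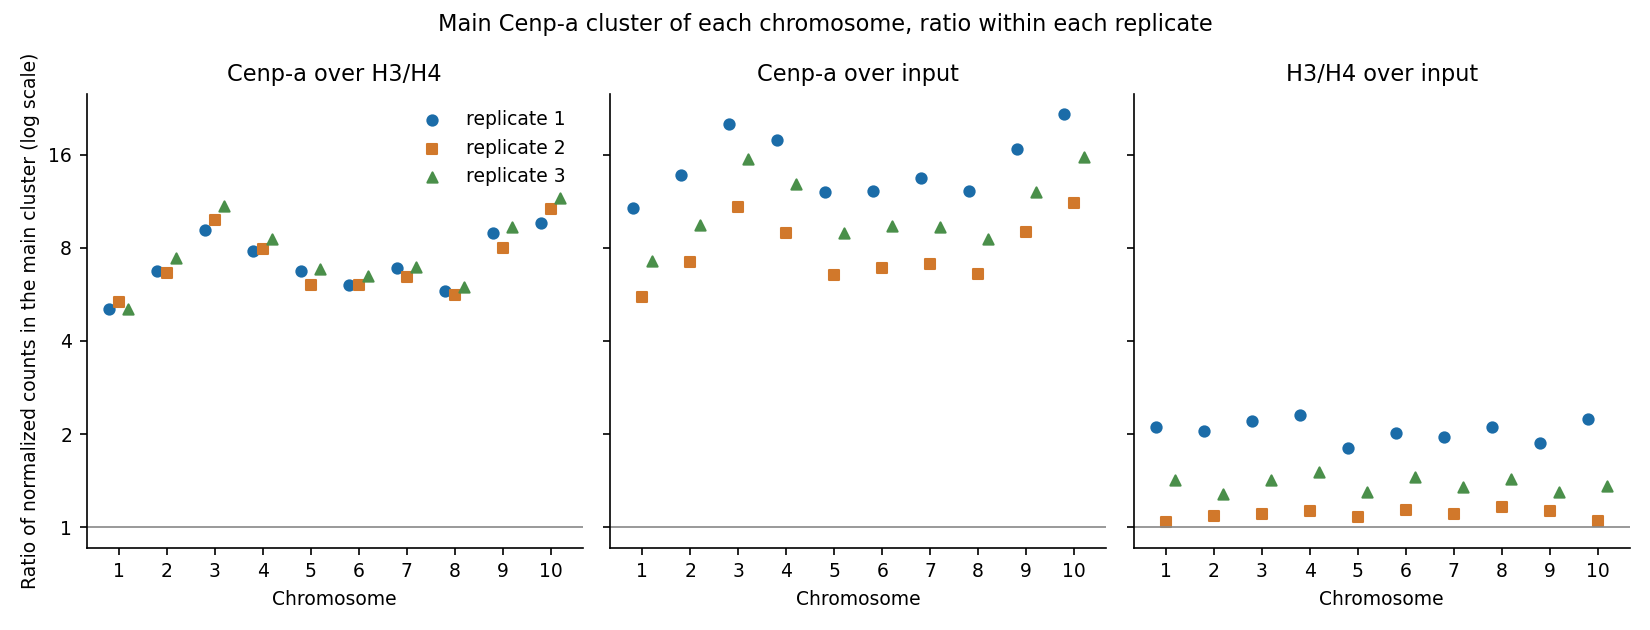
Ratio of normalized counts in the main Cenp-a cluster of each chromosome (x axis), on a log scale, for Cenp-a over H3/H4, Cenp-a over input and H3/H4 over input. Points are the 3 replicates, with H4 in replicate 1 and H3 in replicates 2 and 3. Over H3/H4, the comparison by which the clusters were chosen, the replicates lie closer together, between 5.08 and 11.5. Over input, replicate 1 lies highest and replicate 2 lowest on every chromosome.

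Clusters differed in the size of the excess, and the same chromosomes were highest and lowest in each replicate. The spans were set by the 5-fold limit in these same libraries, so the order compares unlike spans. That of chromosome 1 is 1 bin and leaves out its neighbour chr1:89217366-89227365. The neighbour had 297, 175 and 228 CPM in Cenp-a replicates 1, 2 and 3 and a log2 fold change of 2.18. In the span of chromosome 10, 3 of 7 bins were called. Chromosome 10 had the highest ratio of Cenp-a over H3/H4, with 9.65, 10.6 and 11.5 in replicates 1, 2 and 3, and chromosome 1 the lowest, with 5.08, 5.33 and 5.09. Chromosome 3 followed chromosome 10 with 9.12, 9.82 and 10.9, which overlaps the range of chromosome 10. Means over replicates were 8.75 ± 0.68 on chromosome 9, 8.07 ± 0.41 on chromosome 4, 6.92 ± 0.41 on chromosome 2, 6.73 ± 0.27 on chromosome 7, 6.54 ± 0.43 on chromosome 5, 6.20 ± 0.23 on chromosome 6 and 5.79 ± 0.17 on chromosome 8 (SD, n = 3 each). In this order the ranges over replicates overlapped between chromosomes 3 and 9, between 9 and 4, among 2, 7 and 5, and between 5 and 6, while chromosomes 4 and 2, 6 and 8, and 8 and 1 did not overlap. Reads of any mapping quality had been counted, so a read from a satellite array could be placed in a near-identical array elsewhere, and the part of such placement in the order of chromosomes was not tested.

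The strongest single bin was chr3:16710983-16720982, with 538, 318 and 399 CPM in Cenp-a replicates 1, 2 and 3, against 40.1 CPM in H4 replicate 1, 15.1 in H3 replicate 2 and 18.3 in H3 replicate 3. Every Cenp-a library was at least 13.4 times its histone library there, and the log2 fold change was 4.19 (SE 0.11, adjusted p = 3.64e-43 in edgeR; SE 0.22 in DESeq2). No annotated gene lay in this bin. The bin with the highest Cenp-a level among the highest bins of the chromosomes was chr10:21201474-21211473, with 992, 588 and 798 CPM in the Cenp-a libraries, against 96.9 CPM in H4 and 47.9 and 59.9 CPM in the H3 libraries. At chr7:60384911-60394910 the Cenp-a libraries had 893, 472 and 633 CPM, against 80.9 CPM in H4 and 39.5 and 51.6 CPM in the H3 libraries. In both bins the Cenp-a and histone libraries were far apart, with log2 fold changes of 3.57 (SE 0.10) and 3.55 (SE 0.09). At chr2:67535402-67545401 the Cenp-a libraries had 248, 191 and 265 CPM, against 19.3 CPM in H4 and 17.4 and 18.8 CPM in the H3 libraries, a log2 fold change of 3.65 (SE 0.10).

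The highest bins of the other chromosomes had lower levels or smaller folds. At chr9:42123438-42133437 the Cenp-a libraries had 84.4, 76.9 and 99.2 CPM, against 4.85 CPM in H4 and 8.34 and 9.32 CPM in the H3 libraries, with ratios of 17.1, 9.12 and 10.5 in replicates 1, 2 and 3. The single called bin of chromosome 1 had 134, 84.7 and 110 CPM in Cenp-a, against 26.3 CPM in H4 and 15.9 and 21.6 CPM in the H3 libraries, and its 3 ratios lay between 5.07 and 5.30. Its log2 fold change of 2.37 (SE 0.09) was close to the limit. The bin with the largest fold on chromosome 8, chr8:21411474-21421473, held few reads in any library, with 171, 47 and 792 counts in Cenp-a replicates 1, 2 and 3, against 8 in H4 and 21 and 11 in the H3 libraries. Its log2 fold change of 3.81 (SE 0.28) is correspondingly imprecise, and DESeq2 gave it no adjusted p. Chromosomes 4, 5 and 6 had highest bins with log2 fold changes of 3.20, 2.85 and 2.87.

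Bulk histone recovery was itself above input at most of the 62 called bins, by a different amount in each library. H4 replicate 1 was above input in 62 of 62 bins with a median of 1.92 times, H3 replicate 2 in 49 of 62 with a median of 1.10 and H3 replicate 3 in 60 of 62 with a median of 1.31. The share of all bins above input was not counted for each library. Over all bins, the median log2 fold change of H3/H4 against input was 0.009. Across all bins, H3/H4 was called higher or lower than input in 0 bins at 5-fold (0%), and with no fold minimum 6 bins were higher and 6 lower (0.00415% each; at an unadjusted p under 0.05, 11763 and 10281 in edgeR).

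Against input, 77 bins (0.0532%) were called higher in Cenp-a by the same limits and 1 (0.000691%) lower, and 15 of the 77 were not called against H3/H4. These 15 still had log2 fold changes of 1.9 to 2.32 against H3/H4, with a largest adjusted p of 1.63e-28 in edgeR, beside 2.33 to 2.91 against input. H3/H4 exceeded input at them by 0.25 to 0.67 on the log2 scale, which did not pass the test at any of them (lowest adjusted p = 0.071 in edgeR). On chromosome 1, chr1:89207366-89217365 and chr1:89217366-89227365 adjoin the called bin with 1.9 and 2.18 on the log2 scale. On chromosome 7 the pair from 60494911 to 60514910, about 100 kb to the right of the main cluster, had 2.28 and 2.05. Only the 2 bins inside LOC108647437 on chromosome 4 lay more than 1 Mb from a cluster.

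Over the 10 chromosomes together, the excess was much smaller outside the clusters. Part of this step is fixed by the 5-fold limit, since the clusters hold every called bin. In the first 10 kb outside, Cenp-a over H3/H4 was 3.24 ± 0.23, and from 10 to 50 kb it was 1.49 ± 0.07 (SD, n = 3). From 50 to 100 kb the ratio was 1.03 ± 0.01, from 100 to 500 kb 1.05 ± 0.02 and from 0.5 to 1 Mb 1.01 ± 0.03. Beyond 5 Mb it was 0.986 ± 0.004. These are ratios of summed counts, so a few bins with high counts weigh heavily in them. The value from 100 to 500 kb includes the chromosome 7 pair, whose part in it was not tested. Median log2 fold changes of bins were 1.24 in the first 10 kb and 0.050 from 10 to 50 kb. They were 0.035 from 50 to 100 kb, 0.025 from 100 to 500 kb and -0.017 beyond 5 Mb. From 10 to 50 kb, 9 of 80 bins were higher with no fold minimum, so the median bin there was already near 0. With no fold minimum, 3 bins from 100 to 500 kb were higher, the chromosome 7 pair among them. On chromosomes 7, 8 and 10 the profile had more than 1 peak, with bins at the arm level between them.

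**Figure D2:**
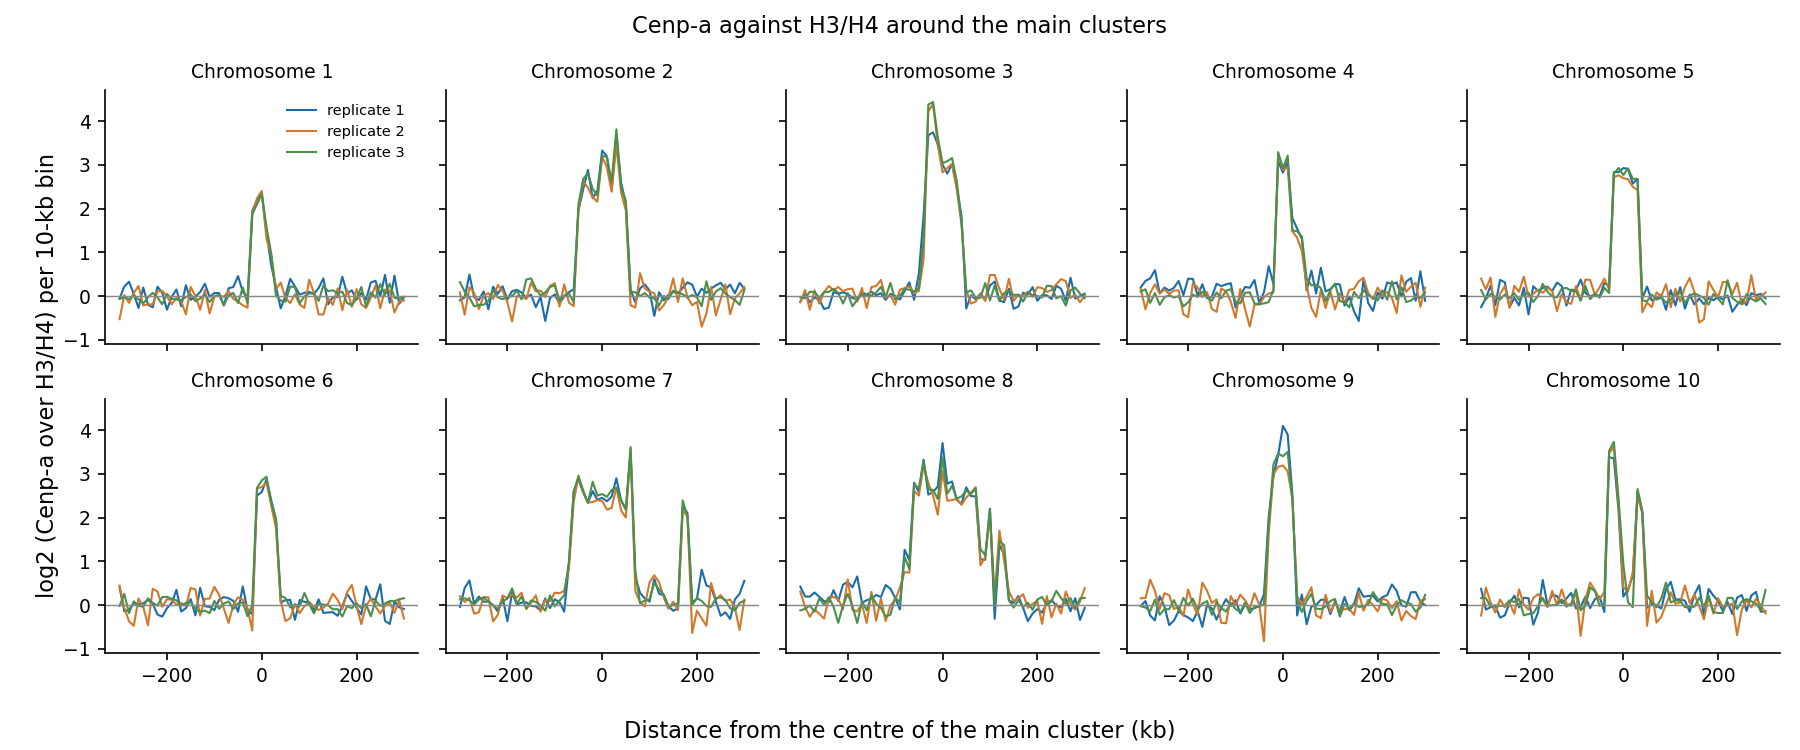
log2 ratio of Cenp-a over H3/H4 per 10-kb bin (y axis) against the distance from the centre of the main cluster in kb (x axis), 1 panel for each of the 10 chromosomes and 1 line for each of the 3 replicates. The replicates follow each other inside the clusters, where the largest fitted log2 fold change is 4.19 on chromosome 3, and lie nearer 0 farther out, with side peaks such as the pair of chromosome 7 at 2.28 and 2.05.

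Genes beside the clusters showed no such excess in the bin of their lower coordinate. The nearest protein-coding gene with a symbol on each side lay, at its nearer limit, at most 4739 kb from its cluster. For genes to the left of a cluster the lower coordinate is the farther limit, so their bins lie beyond the distances given. The bins of these 20 genes had log2 fold changes from -0.26 to 0.33, with 0 of 20 past the adjusted p (lowest 0.836 in edgeR) and 12 of 20 above 0. *ftsj3*, which encodes a methyltransferase of ribosomal RNA processing, lay with its nearer limit 22.2 kb from the chromosome 7 cluster. The bin of its lower coordinate, chr7:60068125, is farther away. That bin had 409, 78 and 1611 counts in Cenp-a replicates 1, 2 and 3, against 348, 416 and 289 in H4 replicate 1 and H3 replicates 2 and 3, a log2 fold change of 0.08 (SE 0.12). The largest value was that of *fzr1*, which encodes an activator of the anaphase-promoting complex, with ratios of 1.59, 1.35 and 0.948 and a log2 fold change of 0.33 (SE 0.13).

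With no fold minimum, 183 bins (0.126%) were higher in Cenp-a than in H3/H4 and 11 (0.0076%) were lower. Of the 183, 66 lay in the clusters, 27 within 1 Mb outside them and 90 farther away, all of the last more than 5 Mb from a cluster. The 90 distant bins were small differences spread over all 10 chromosomes, with log2 fold changes from 0.43 to 2.03 and a median of 0.55, or 1.47-fold, and 87 of them were under 2-fold. Their number depends on the design more than that of the called bins. Without the replicate block 99 of all the 183 bins and 10 distant bins passed the test, without replicate 3 there were 37, which include 29 of the 90, and DESeq2 passed 60 of the 90.

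Because these bins were picked by the test, each replicate was also measured in distant bins called from the other replicates. Of 93 bins called without replicate 1, 85 had a ratio above 1 in replicate 1, against 47.1% of all bins. Of 90 called without replicate 2, 79 were above 1 in replicate 2, against 48.6% of all bins, and of 37 called without replicate 3, 31 were above 1 in replicate 3, against 43.9%. The median log2 ratios in the replicate left out were 0.38, 0.41 and 0.63.

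Most distant bins held genes, a description with no test. An end of a protein-coding gene fell in 64 of the 90 (71.1%), against 22.8% of all bins tested, and 81 of the 90 (90.0%) overlapped any annotated gene, against 63.0%. Median levels in these 90 bins were 14.9, 11.3 and 11.5 CPM in Cenp-a replicates 1, 2 and 3, against 9.96 CPM in H4 replicate 1, 7.11 CPM in H3 replicate 2 and 7.44 CPM in H3 replicate 3, where the median of all bins was 5.92 to 6.09 CPM. H3/H4 was also above input in 77 of the 90, with a median log2 fold change of 0.27, against 0.009 over all bins. The share of all bins with H3/H4 above input was not counted. Cenp-a was above input by a median of 0.85, past the adjusted p in 88, as were 3.81% of all bins on the higher side. IgG over input was 0.99 and 1.01 at the median of these bins in replicates 2 and 3. The 90 bins thus had higher median levels and a higher median recovery of H3/H4 than all bins. They were picked by a test on these same counts, so their levels are not independent of the choice. The part of level and recovery in these differences was not tested.

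The largest of these differences was a pair of bins inside LOC108647437, a protein-coding gene at chr4:17698799-17758651. The bin starting at 17721474 had 88.5, 56.5 and 76.1 CPM in Cenp-a replicates 1, 2 and 3, against 19.6 CPM in H4 and 15.7 and 18.5 CPM in the H3 libraries, a log2 fold change of 2.03 (SE 0.10). Its neighbour, starting at 17711474, had 78.7, 62.1 and 79.7 CPM in Cenp-a, against 17.7 CPM in H4 and 16.7 and 20.5 CPM in H3, a log2 fold change of 2.00 (SE 0.09). Every Cenp-a library was above every histone library in both, with ratios between 3.59 and 4.50. The third, chr5:81086384-81096383, overlapped no annotated gene and had 31.4, 18.2 and 22.4 CPM in Cenp-a, against 8.70 CPM in H4 and 10.8 and 11.9 CPM in H3. Its ratio was 3.58 in replicate 1 but 1.68 and 1.88 in replicates 2 and 3, and DESeq2 did not pass it (adjusted p = 0.10).

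The remaining large differences fell mostly on bins with a single gene, and the genes given here were chosen after their values were seen. *higd1a*, which encodes a mitochondrial inner membrane protein induced by hypoxia in mammals, lay at chr6:9431655-9438903. Its bin had 18.3, 11.1 and 11.1 CPM in Cenp-a, against 9.94 CPM in H4 and 6.13 and 6.04 CPM in H3, a log2 fold change of 0.87 (SE 0.11). *insig1*, which encodes a regulator of sterol synthesis in the endoplasmic reticulum, had 12.6, 8.03 and 8.53 CPM in Cenp-a, against 6.19 CPM in H4 and 4.50 and 5.27 CPM in H3, a log2 fold change of 0.85 (SE 0.11). In both bins each Cenp-a library was above the histone library of its own replicate by at least 1.61 times.

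The bins of *dusp5* and *dusp1*, which encode phosphatases that inactivate MAP kinases, were also among those picked, and other members of their family were not counted. *dusp5*, at chr7:2859745-2867076, had 16.9, 11.4 and 11.6 CPM in Cenp-a, against 9.37 CPM in H4 and 7.13 and 6.42 CPM in H3, a log2 fold change of 0.80 (SE 0.11). *dusp1*, at chr3:41976283-41979784, had 20.2, 14 and 15.4 CPM in Cenp-a, against 12.4 CPM in H4 and 8.04 and 9.74 CPM in H3, a log2 fold change of 0.72 (SE 0.10). Both exceeded their own replicate's histone library in 3 of 3 replicates, as did all 90 distant bins, which were picked by the test in these libraries. H3/H4 was above input there too, by 0.26 on the log2 scale at *dusp5* and 0.62 at *dusp1*.

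**Figure D3:**
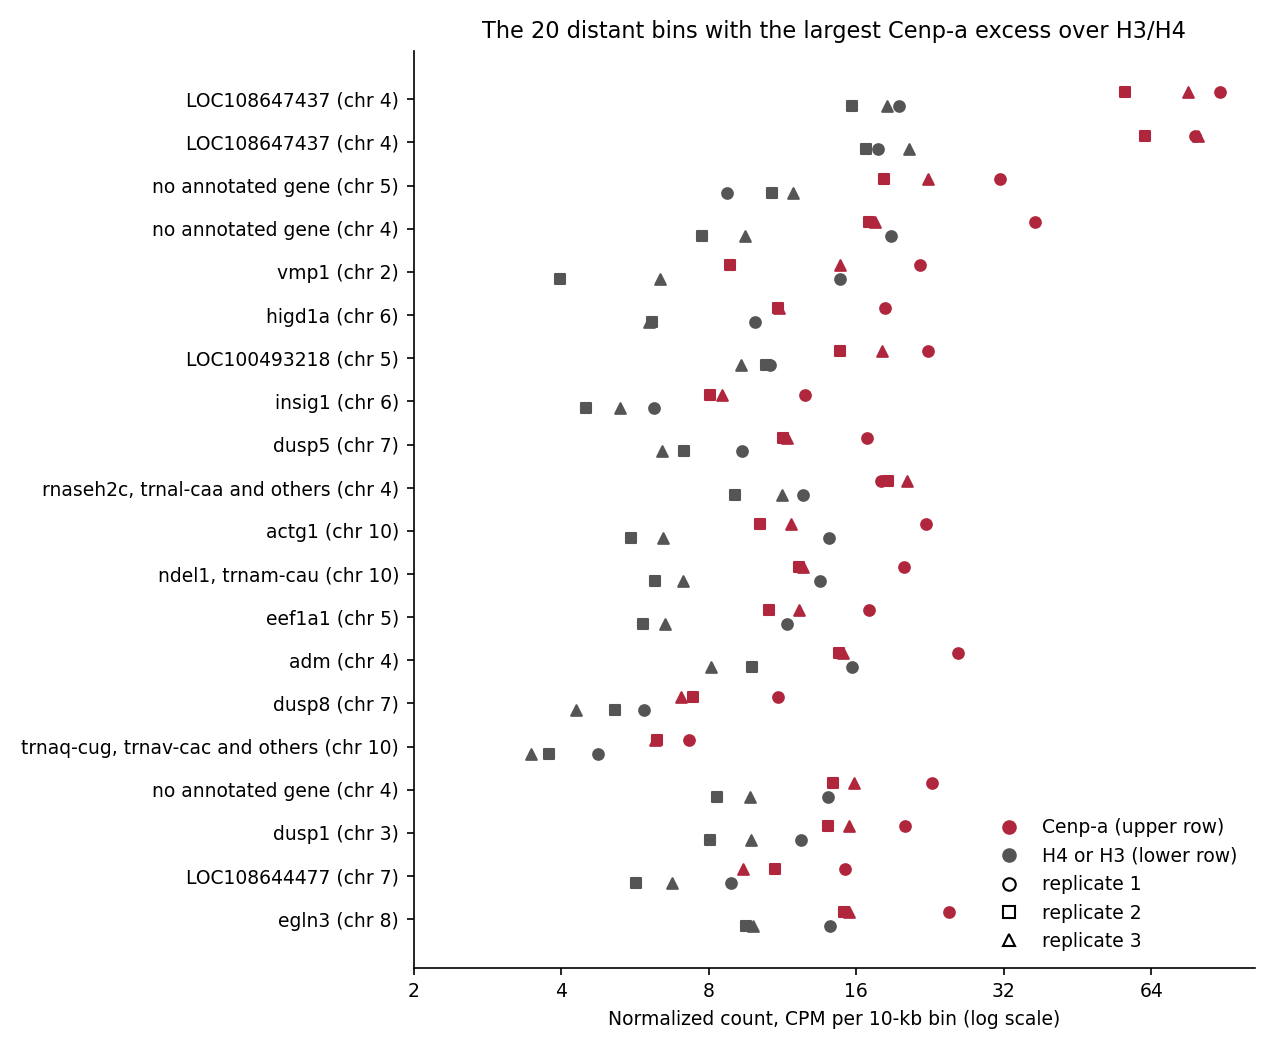
Normalized counts in CPM on a log scale (x axis) in the 20 distant bins with the largest log2 fold change, each named by the annotated genes it holds. In each row the upper, red points are Cenp-a and the lower, grey points are H4 (replicate 1) or H3 (replicates 2 and 3), with 1 marker shape per replicate. In each replicate Cenp-a lies to the right of its histone library, from 56.5 to 88.5 CPM at LOC108647437 and below 40 CPM in the other bins.

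Immediate early and growth factor response genes, a list drawn up after the values were seen, had 14 of 81 bins higher (17.3%, against 0.126% of all bins) and 0 lower, with a median log2 fold change of 0.13, against -0.02 over all bins. Besides the phosphatases they included *junb* and *fosl2*, subunits of the AP-1 transcription factor, with 0.57 and 0.55, *hes1*, a repressor downstream of Notch, with 0.58, and *ccn1* and *ccn2*, secreted matrix proteins, with 0.57 and 0.54. Cytoskeleton, chaperone and translation genes, also listed afterwards, had 13 of 90 bins higher (14.4%, against 0.126% of all bins) and 0 lower, with a median of 0.12. Those with the largest values were *actg1*, a cytoplasmic actin, with 0.78, *eef1a1*, the translation elongation factor, with 0.76, and *pfn1*, an actin-monomer binding protein, with 0.70. Neither list is independent of the values it describes.

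The other gene families had few such bins, 13 in all over 9 lists and 6 without replicate 3. Ribosomal protein genes had a median log2 fold change of 0.14 over 120 bins, with 105 (87.5%) above 0, against 44.9% of all bins, but only 1 bin passed the test, that of *rps27* with 0.54 (SE 0.11). H3/H4 exceeded input at ribosomal protein genes by a median of 0.23. Transfer RNA genes had 6 of 413 bins higher (1.45%, against 0.126% of all bins) and a median of 0.06. The highest, on chromosome 4 from 37942947, held leucine tRNA genes and *rnaseh2c*, with 18.0, 18.6 and 20.3 CPM in Cenp-a, against 12.5 CPM in H4 and 9.05 and 11.3 CPM in H3. The next were a bin with *trnam-cau* on chromosome 10, which also holds the 1 snRNA bin that passed (0.76), the *trnaq-cug* array on chromosome 10 (0.73) and a *trnag-gcc* array on chromosome 3 (0.63).

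Histone genes had 4 of 148 bins higher (2.70%, against 0.126% of all bins). Of these bins, 120 belong to the annotated model of *h2ac14* alone, which is 1.19 Mb long, with a median of -0.01, and the other 28 had a median of 0.22 with 3 higher. The bins that passed were those of *h3c13* (0.67), *h2ac14* (0.57), *h2ac12* (0.55) and *h2ac21* (0.49). Ribosomal RNA genes had 2 of 52 bins higher (3.85%, against 0.126% of all bins), adjacent bins on chromosome 6 with 25 annotated genes in all and log2 fold changes of 0.48 and 0.46. Copies of histone, tRNA and rRNA genes are near-identical, so the counts of any single copy are uncertain.

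No bin passed the test in either direction at *hox* genes (45 bins), zinc finger genes (629), olfactory receptor genes (43) or centromere and kinetochore protein genes (113). With 0.126% of all bins higher and 0.0076% lower, lists of this size would hold few or no such bins at the share of all bins, so the count of 0 does not set them apart. The last list covers 37 of 40 genes found on the chromosomes, and its median log2 fold change was -0.05 with a range from -0.31 to 0.23. The gene of Cenp-a itself, *cenpa* at chr8:73684892-73694850, had 7.78, 8.18 and 7.59 CPM in the Cenp-a libraries, against 9.18 CPM in H4 and 7.76 and 8.39 CPM in H3, a log2 fold change of -0.12 (SE 0.11, adjusted p = 0.979 in edgeR).

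The 11 bins lower in Cenp-a had log2 fold changes from -0.66 to -0.46. Of these, 1 lay in the outermost 1 Mb of a chromosome and 7 lay 1 to 5 Mb from an end, 0.0511% and 0.0882% of the bins tested there, against 0.0076% of all bins. More bins were higher than lower from 1 to 5 Mb. Higher bins numbered 1 and 12 in these classes, 0.0511% and 0.151%, against 0.126% of all bins. That share includes the clusters. Of bins more than 5 Mb from a cluster, 0.0669% were higher, which is below the share from 1 to 5 Mb of an end. The strongest, chr8:680001-690000, had 5.18, 4.57 and 5.36 CPM in Cenp-a, against 10.1 CPM in H4 and 8.24 and 6.49 CPM in H3, with an adjusted p of 0.00142 in edgeR. It held LOC100498557 and LOC100485203. The calls were not stable, since DESeq2 passed 1 of the 11 and leaving out replicates 1, 2 and 3 kept 1, 4 and 8 of them. Without replicate 3, 32 bins were lower, and without the replicate block 0. Lower bins called from the other replicates had a ratio below 1 in left-out replicates 1, 2 and 3 in 6 of 12, 8 of 8 and 23 of 32. The shares of all bins below 1 were 52.9%, 51.4% and 56.1%. In the simulated counts, 14 of 144079 bins without a change also passed as lower. Those counts had 1 common dispersion and held 200 bins raised by each of 8, 2 and 1.5-fold. The passes without a change depend on how many raised bins were put in, so the 14 set no expected number for the 11.

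Away from single bins, Cenp-a was slightly below H3/H4 toward the chromosome ends. Total normalized counts gave ratios of 0.980, 0.873 and 0.981 in replicates 1, 2 and 3 in the outermost 1 Mb, and 0.930, 0.917 and 0.979 from 1 to 5 Mb. More than 30 Mb from an end, and leaving out 1 Mb around the clusters, they were 0.986, 1.01 and 0.991, so the ratio near the ends was the lower one in 3 of 3 replicates, where 3 pairs cannot give an exact p below 0.25. Median log2 fold changes were -0.09, -0.08, -0.02 and -0.01 in bins 0 to 1, 1 to 5, 5 to 30 and over 30 Mb from an end. In both outer classes the difference from the interior was largest in replicate 2, the shallowest Cenp-a library, and in the outermost 1 Mb replicates 1 and 3 lay close to their interior values.

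**Figure D4:**
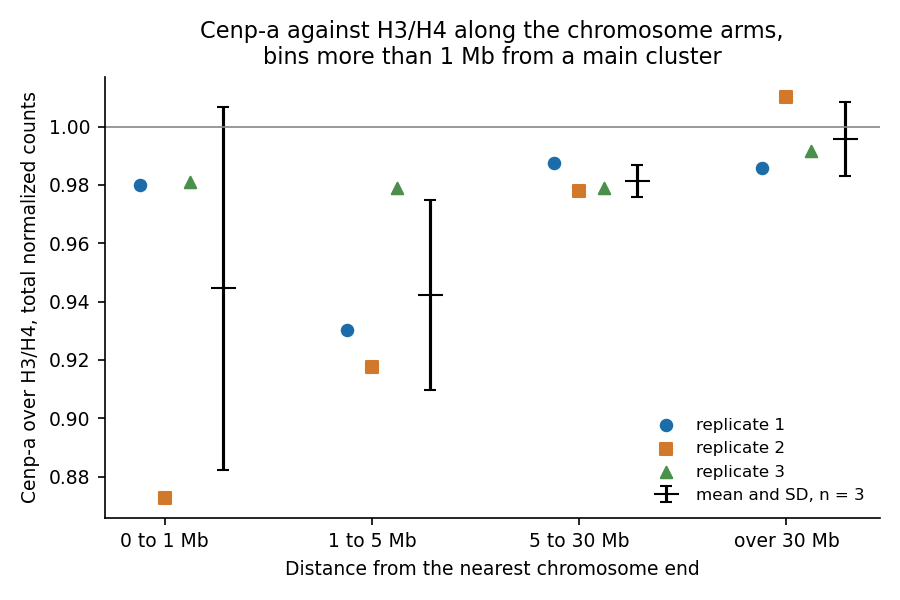
Total normalized counts of Cenp-a over H3/H4 (y axis, which does not start at 0) in bins more than 1 Mb from a main cluster, by distance from the nearest chromosome end (x axis). Coloured points are the 3 replicates and the black bars the mean and SD (n = 3). The 2 outer classes lie at 0.945 ± 0.062 and 0.942 ± 0.033, below 1 in every replicate. The class from 5 to 30 Mb is also below 1 in every replicate, at 0.988, 0.978 and 0.979 in replicates 1, 2 and 3.

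By gene content, the median log2 fold changes of bins differed little. They were -0.01 for bins that hold an end of a protein-coding gene, -0.03 inside such genes, -0.003 where only other genes lie and -0.01 with no gene, each within 0.03 of 0. The distant bins that passed the test made up 0.195% of the bins with an end of a protein-coding gene, 0.0150% of those inside one, 0.240% of those with other genes only and 0.0171% of those with no gene.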

How the data were processed

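The deposited tables hold raw counts of reads per 10-kb bin, which the authors made from read pairs trimmed with Trimmomatic 0.39, aligned with minimap2 2.17-r941 to the unmasked v10 genome, sorted with SAMtools 1.9 and counted with deepTools 3.3.0 at a mapping quality of 0 or more. Removal of duplicates is not given in the sources used here. Sequences were numbered as chromosomes from the position of the last gene of each in the RefSeq annotation of UCB_Xtro_10.0, which lay within 182731 bp of the end of the last bin. That table gives gene limits without strand, so bins were classed by whether they hold either end of a protein-coding gene rather than its start. No genome sequence was used here.

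Library size was the total on the chromosomes. Bins with at least 10 counts in 50% of the 6 libraries were fitted with edgeR 4.0.16 in R 4.3.3 (glmQLFit, robust, and glmQLFTest) with the replicate as a block and Benjamini-Hochberg adjustment over all bins. Standard errors are the absolute log2 fold change over the square root of F. Called bins up to 200 kb apart were joined, and the main cluster of a chromosome was the one whose Cenp-a CPM exceeded H3/H4 CPM by most in sum. For the ratio in a single bin, 0.1 CPM was first added to numerator and denominator. Pairing comes from the replicate numbers in the titles. Across bins, deviations of same-numbered Cenp-a and H3/H4 libraries from their group means correlated at 0.218, 0.184 and 0.163, and those of other pairs at -0.182 to -0.026. Deviations from a group mean cancel out within the group, so the negative values of other pairs are partly fixed by the positive ones. No pair of libraries agreed within sampling noise. The fit was run on counts simulated with a common dispersion. There 200 of 200 bins raised 8-fold were called, and 175 of 200 raised 1.5-fold passed the adjusted p. Of 144079 bins simulated without a change, 15 passed it as higher and 14 as lower, and 0 were called at 5-fold.

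Named positions are the main cluster and highest bin of each chromosome, the bins called against input only and up to 10 lower bins. The genes in or nearest to the clusters and up to 4 members of the other gene families were also named. The distant bins, and the members of the lists drawn up afterwards, were picked after the values were seen. Further members of those lists passed, such as *bhlhe40* with a log2 fold change of 0.70. The values of 1 gene beside a cluster are not reported here. Members and lists were chosen with earlier results of these data known. Alternatives were TMM factors, DESeq2 1.42.0, other filters, fold limits, bin sizes and joining distances, input as the reference, no block, and each replicate left out.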

Additional observations from a re-analysis of the deposited data

How the results depend on the processing

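Against 62 bins called higher, 59 to 65 were called when a replicate was left out, and the other scalings, filters, DESeq2 and the fit without the block gave 59 to 63. A fold limit of 10 left 12 bins and bins summed to 50 kb gave 15. No bin was called lower, also with each replicate left out (0), except 1 with input as the reference. With no fold minimum the 183 higher bins became 99 with no replicate block and 23 of 100 kb, and 128 to 185 when a replicate was left out. The 11 lower bins became 7 with TMM factors, 1 with DESeq2, 0 with no replicate block, 0 of 100 kb, and 8 to 32 when a replicate was left out. The distant higher bins, an alternative added after seeing the data, numbered 10 with no replicate block and 37 to 93 when a replicate was left out, against 90. Higher bins at the gene families numbered 13, and 6 to 18 when a replicate was left out, the lowest without replicate 3. The median log2 fold change from 5 to 30 Mb of a chromosome end was -0.023, and -0.0085 with TMM factors. The ratio in the main clusters of 7.23 stayed between 6.95 and 7.36 under all its alternatives, 7.05 to 7.36 with a replicate left out. Depth differed by 16.9 times between Cenp-a replicates 3 and 2, and how far it limits the small differences was not tested. The cause of these changes was not tested.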

Other observations

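Cenp-a over IgG in the main clusters was 7.36 in replicate 2 and 9.67 in replicate 3, where the IgG library of replicate 2 held 4053600 counts and that of replicate 3 held 107881690. On the unplaced scaffolds, 0 of 100 tested bins had an unadjusted p under 0.05 on the higher side, and between 0.0559% and 0.0676% of the counts of the 6 libraries fell on scaffolds.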
